A study of Ciona robusta with 16 samples.

Results

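The genes described here are zygotic genes of the ascidian Ciona robusta that came on by the onset of gastrulation and were still present in tailbud embryos or larvae. The members were chosen by their measured mRNA levels, given as TPM, a transcript abundance that takes the length of the transcript into account and adds up to a constant sum within every library. A gene of the KY21 annotation was selected where its TPM was below 2 in all 6 libraries of unfertilized eggs, fertilized eggs and 16-cell embryos, and at least 10 in both libraries of the initial gastrula. The highest of its mean levels in the middle tailbud II, late tailbud II and larva also had to reach 0.25 of its initial gastrula mean. This rule took 101 of 18388 KY21 genes. Of the 8164 KY21 genes that were below 2 TPM in all 6 early libraries, 139 had at least 10 TPM in both initial gastrula libraries, and 38 of those 139 did not meet the late condition. The appearance of the members by the initial gastrula and their presence in at least 1 late stage were fixed by the choice, and both are given as a description with no test.

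The series holds 16 RNA-seq libraries of wild-type eggs and embryos that received no treatment, made at 8 stages in 2 biological replicates each. Before gastrulation these were unfertilized eggs (unfE, 0 h after fertilization), fertilized eggs at 0.4 h (fertE) and embryos of 16 cells at 2.65 h (cell16). The later stages were the initial gastrula at 4.5 h (iniG), the late neurula at 7.4 h (latN), the tailbud stages middle II at 10.9 h (midTII) and late II at 13.5 h (latTII), and the larva at 17.5 h. Each library was made from the poly(A) RNA of about 150 pooled eggs or whole embryos, dechorionated and, except for unfE, fertilized in vitro. Of the 2 replicates of a stage, 1 came from the same fertilization batch as the proteomics samples, while the other belonged to a separate time course. The latN libraries played no part in the choice of the members.

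An ascidian embryo starts on mRNA that the mother laid down in the egg, and its own genome is switched on during cleavage, largely lineage by lineage. By gastrulation, inherited determinants and signals between neighbouring blastomeres have restricted the fates of most lineages, and the first zygotic genes include the transcription factors and signalling molecules of that network. Some of these genes act in a short window, while others stay on in the notochord, epidermis, nervous system or other tissues of the swimming larva.

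The libraries held between 23.1 M and 33.4 M estimated counts, with a median of 26.2 M. The stage labels were in order with their markers: HOXD10, a posterior Hox gene, had a mean of 0.177 TPM in iniG and 165 TPM in the larva, and the cyclin gene CCNB3 had a mean of 207 TPM in unfE and 16.7 TPM in the larva. The iniG libraries differed for the members more than over all KY21 genes. Replicate 1 was the higher one for 83 of the 101 members, with a median ratio of replicate 1 to replicate 2 of 1.51, while over the 7802 KY21 genes with at least 10 TPM in both iniG libraries it was the higher one for 3518, with a median ratio of 0.964. Among the 38 genes on at iniG but not kept on, iniG replicate 1 was also the higher one for 28, so this lean was not particular to the members. In latTII the members' difference ran the other way, with replicate 1 the higher one for 21 of the 66 members at 10 TPM or more in both libraries. The part of these differences in the results below was not tested, and the counts of calls are therefore given also with each library left out. Because the libraries are of whole embryos, fewer cells of a type and less RNA per cell cannot be told apart.

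**Figure D1:**
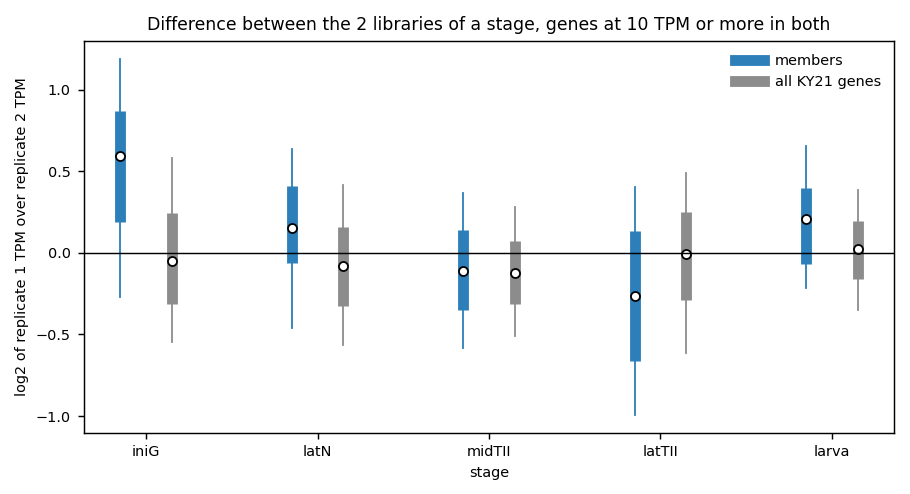
Log2 ratio of replicate 1 to replicate 2 TPM in the 5 stages from iniG on, for the members (blue) and for all KY21 genes (grey) at 10 TPM or more in both libraries of the stage. White points are medians, thick bars run from the lower to the upper quartile, and thin lines span the 10th to the 90th percentile. The members' median lay at 0.59 in iniG and at -0.26 in latTII, against -0.05 and -0.01 for all genes.

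The thresholds cut through a continuous range. The members nearest to the early limit were KY21.Chr14.316, KY21.Chr2.1411 and KY21.Chr2.1389, whose highest early values were 1.99, 1.97 and 1.96 TPM, and the genes just beyond it had 2.04, 2.08 and 2.14 TPM. In the lower of the iniG libraries, KY21.Chr5.863, KY21.Chr14.280 and KY21.Chr3.831 stood just inside at 10.2, 10.2 and 10.3 TPM, and the nearest genes left out stood at 9.93, 9.84 and 9.72 TPM. By the ratio of the highest late mean to the iniG mean, KY21.UAContig3.1, KY21.Chr10.65 and KY21.Chr5.707 were the last to enter at 0.257, 0.283 and 0.286, and the nearest genes left out had 0.247, 0.223 and 0.208. In the early libraries 59 of the 101 members stayed below 1 TPM throughout, and 1 was listed at 0 in all 6.

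The members did not hold a constant level after iniG. Their median stage mean was 25.6 TPM in iniG and 52.5 in latN, and then went down through 32.1 in midTII and 28.9 in latTII to 15.4 in the larva. On counts, the median ratio of a member to its own iniG level was 1.83 in midTII and 0.854 in the larva with TMM factors, 2.16 and 1.04 with RLE factors, and 1.16 and 0.561 on library totals, so whether the larva lay below iniG depends on the scaling. Together they made up 0.397% of all TPM in iniG and 1.21% in latN, and the shares of the 3 late stages were 0.868%, 0.575% and 0.329% in order of time, on average over the replicates. In latN, the stage that the rule left out, the 10 highest members held 45.3% of the members' summed TPM, and 32 members had a mean of at least 100 TPM, against 7 members in iniG and 6 in the larva.

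By the stage of the highest mean TPM, 48 members peaked in latN, 22 in iniG, 20 in midTII and 11 in latTII, and none peaked in the larva. TPM is relative to the rest of the library, so the same count was made on counts scaled by TMM factors, an alternative chosen after seeing the data. It placed 45 members in latN, 12 in iniG, 25 in midTII and 15 in latTII, with the other 4 in the larva. On both scales latN was the most frequent peak. As a comparison, 1703 KY21 genes were below 2 TPM in all 6 early libraries and had a mean of at least 10 TPM in some later stage, and of these, 664 peaked in the larva, 416 in latTII, 312 in midTII, 243 in latN and 68 in iniG. The members make up 5.93% of that set, and 1157 of its genes still had an iniG mean below 2 TPM. Members had to reach 10 TPM in both iniG libraries and the set did not. The difference in peak stage is therefore set in part by the choice and was not tested.

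**Figure D2:**
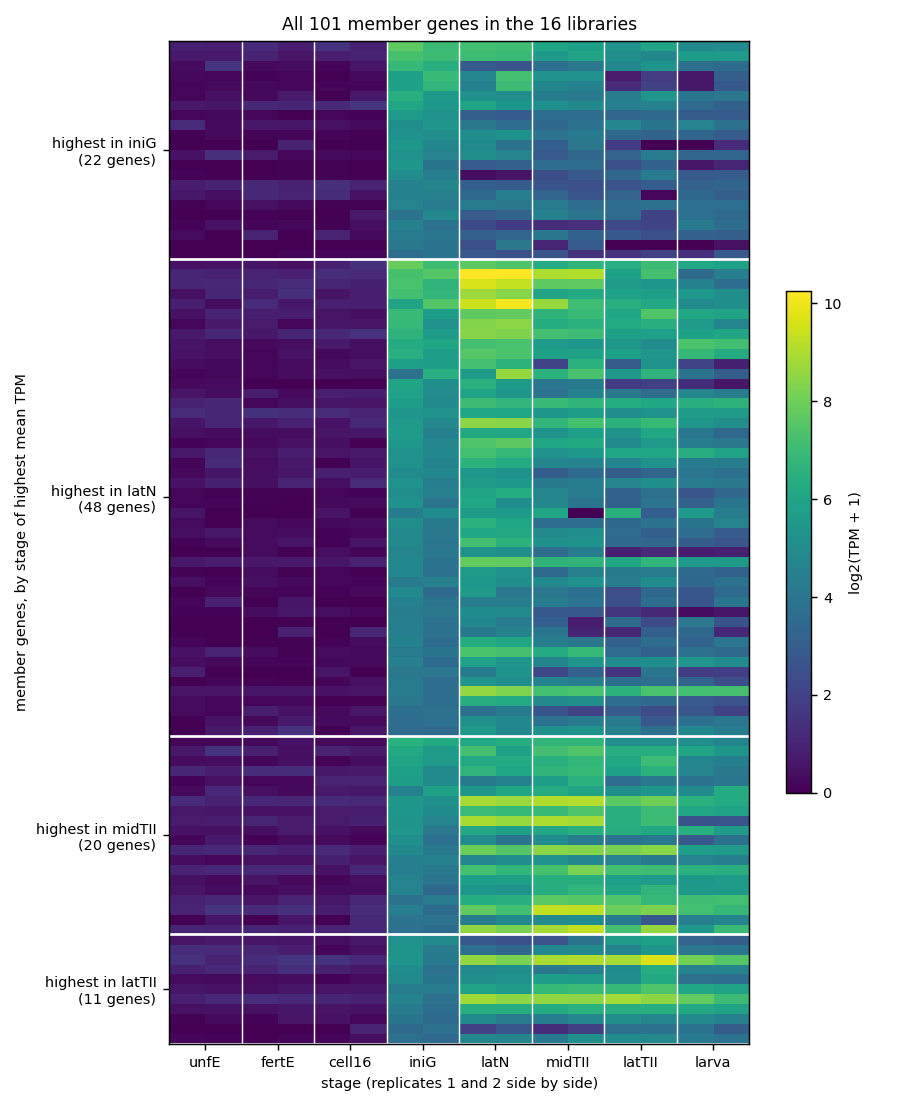
Level of all 101 members, as log2(TPM + 1) in colour, in each of the 16 libraries (columns, replicates 1 and 2 of each stage side by side). Rows are genes, grouped by the stage of their highest mean TPM. The first 6 columns are dark by the rule; the block of 48 genes with the highest mean in latN is the largest.

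The late condition asked for only 1 late stage, and most members met it in more. All 3 late means reached 0.25 of the iniG mean in 71 members, the midTII mean did so in 95, the latTII mean in 88 and the larva mean in 79. The highest late mean was at or above the iniG mean in 60 members, and the largest ratio was 44.7. The highest late mean fell in midTII for 63 members, in latTII for 25 and in the larva for 13. In the larva, 90 members still had at least 2 TPM in both libraries, and 6 were below 2 TPM in both.

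Members and the 38 genes not kept on differed in their latN levels, with overlap. The median ratio of latN mean to iniG mean was 1.92 in the members, with a range from 0.0156 to 26.9, and 0.426 in the genes not kept on. The latN mean was at or above the iniG mean in 73 of the 101 members and in 6 of the 38 other genes. The genes not kept on had median levels of 24.4 TPM in iniG and 13.4 TPM in latN, and of 1.98, 0.88 and 0.884 TPM in midTII, latTII and the larva. Their median in iniG was thus near that of the members, and 32 of the 38 peaked there. LatN lies between the stages that the rule used, so a gap between the sets there was not tested.

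**Figure D3:**
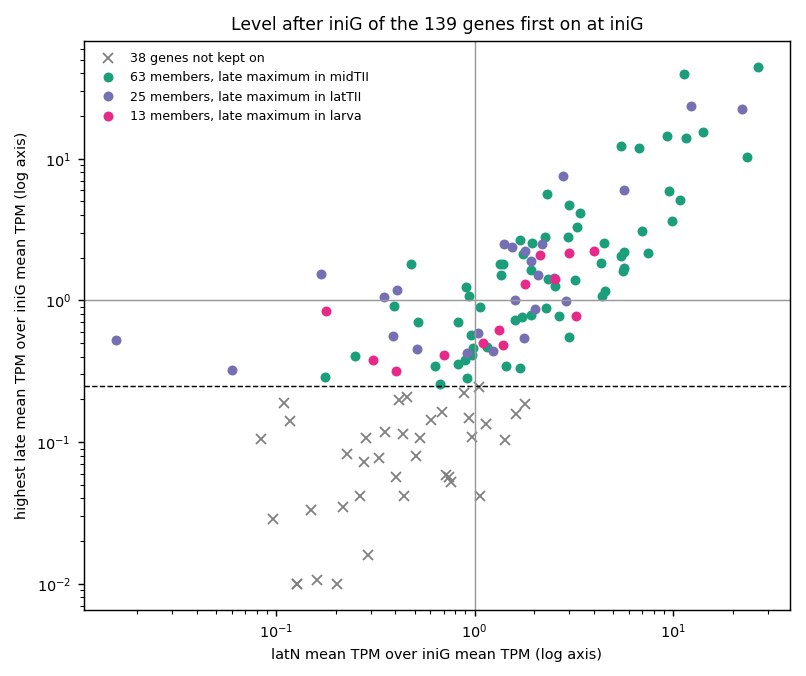
Ratio of the latN mean TPM to the iniG mean TPM (x axis, log scale) against the ratio of the highest late mean TPM to the iniG mean TPM (y axis, log scale) for the 139 genes first on at iniG. Coloured points are members, by the late stage of their highest mean, and grey crosses the 38 genes not kept on, of which 3 with a ratio below 0.01 are drawn at 0.01. The dashed line is the threshold of 0.25; 73 members lie at or right of the vertical line at 1.

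Steps between successive stages were tested on the estimated counts with edgeR's quasi-likelihood test in 1 fit over all 16 libraries, with Benjamini-Hochberg adjusted p-values over all 14643 genes tested. All 101 members passed the filter on low counts, which they met in the stages where the rule had them high. From iniG to latN, 43 members rose and 6 fell, while 15.7% of all genes tested rose and 14.2% fell. The median log2 fold change was 1.16 over the members and 0.02 over all genes. The called rises ran from 1.05 to 4.96 on the log2 scale. Of the 43, 33 were called in each of 13 alternative analyses, and with 1 library left out the count lay between 34, without iniG replicate 2, and 44, without iniG replicate 1. The 6 falls became 11 with limma on log2(TPM + 1), and 5 to 8 with a library left out. Genes lost for good after iniG were left out by the rule, so both counts are shaped in part by the choice of members.

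From latN to midTII, 16 members rose and 16 fell, beside 16.8% and 16.8% of all genes tested, so the members' shares were near those of the genome. This balance depends on the scaling: RLE factors gave 23 rises and 9 falls, library totals 8 and 29, and limma on log2(TPM + 1) 10 and 37. Those scalings moved the median log2 fold change of all genes to 0.18, -0.41 and -0.34, from 0.00 with TMM factors. Leaving out latN replicate 2 left 6 rises and 10 falls, leaving out midTII replicate 2 left 10 rises and 7 falls, leaving out latN replicate 1 left 6 falls, and leaving out midTII replicate 1 left 9 falls.

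The later steps went mostly down. From midTII to latTII, 2 members rose and 17 fell, while 4.58% of all genes tested rose and 4.48% fell. From latTII to the larva, again 2 members rose and 17 fell, beside 3.27% and 5.18% of all genes. The median log2 fold change over the members was -0.41 in the first of these steps and -0.52 in the second, and over all genes it was 0.00 and 0.03. In a joint test of the 3 late stages, 44 of the 101 members differed among them, beside 23.0% of all genes tested, and 33 of the 44 had their lowest late mean in the larva. The late condition selected on the highest of these 3 means, so the counts for the last 2 steps and for the joint test describe the chosen genes and are not read against the shares of all genes. With a library left out, the falls numbered 7 without midTII replicate 2 and 7 without latTII replicate 2 in the first step, with 9 and 10 without the other libraries. In the step to the larva they numbered 5 without larva replicate 2, 7 without latTII replicate 2 and 11 without larva replicate 1. The counts of 2 rises went down to 1 without midTII replicate 2 or latTII replicate 2 in the first of these steps, and without latTII replicate 2 or either larva replicate in the second.

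**Figure D4:**
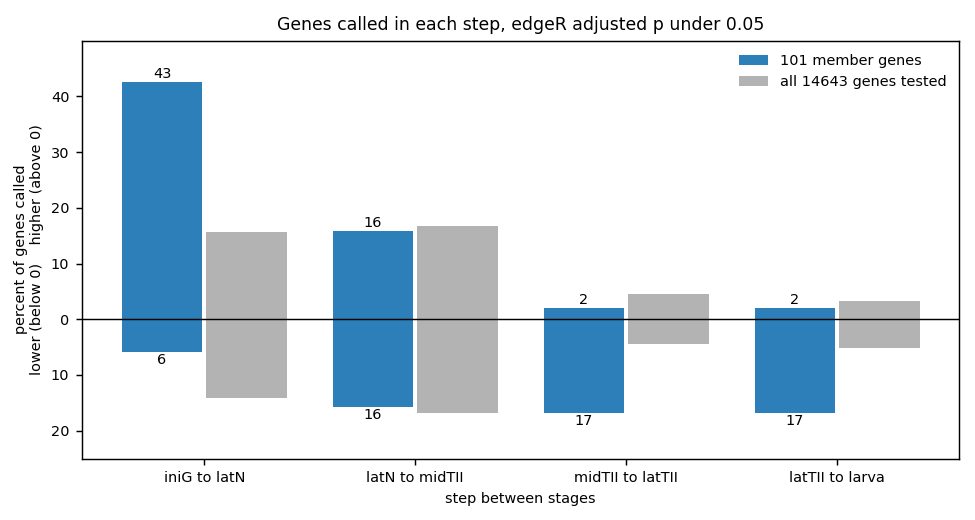
Percent of genes called higher (bars above 0) and lower (bars below 0) in each step between successive stages, for the 101 members (blue, with the number of genes) and for all 14643 genes tested (grey), by edgeR's quasi-likelihood test at an adjusted p under 0.05. The share of members called higher stands above the grey bar from iniG to latN, and 17 members were called lower in each of the last 2 steps, whose stages the rule selected on.

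Of the 101 members, 14 carry a gene symbol, taken from the closest human or frog protein in the study's tables, and their roles are given below as known in vertebrates unless another animal is named. From iniG to latN, 10 of the 14 rose and none fell, beside 15.7% and 14.2% of all genes tested. Of all 101 members, 43 rose and 6 fell in this step. From latTII to the larva, 7 of the 14 fell and 1 rose, beside 5.18% and 3.27% of all genes tested. The rule selected on these stages, so the counts of this last step are a description. Several of these falls were lost with a library left out, as given for each gene below.

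T and MSX2 are transcription factors. T, or Brachyury, is the T-box factor that in Ciona is expressed in the notochord lineage and needed for its differentiation. It stood at 42.2 and 14.9 TPM in iniG, 6.48 and 7.89 in latN, 11.7 and 11.2 in midTII, 4.59 and 8.10 in latTII, and 0.525 and 1.11 in the larva. The libraries of iniG lay above those of every later stage, and those of the larva lay below all of them. The drop from iniG to latN was a log2 fold change of -1.80 (SE 0.67) and did not pass the test (adjusted p = 0.0615), whereas the fall from latTII to the larva did, at -2.89 (SE 0.72, adjusted p = 0.0288). That call was lost without latTII replicate 2 (adjusted p = 0.184) and without larva replicates 1 and 2 (adjusted p = 0.189 and 0.115).

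MSX2 is a homeodomain factor of the Msx family, which marks the border of the neural plate in chordates. It had 21.5 and 11.6 TPM in iniG, 80.3 and 64.2 in latN, 20.03 and 15.5 in midTII, 7.96 and 11.6 in latTII, and 8.72 and 15.2 in the larva. On TPM it thus peaked in latN and returned to about its iniG level by midTII. On counts with TMM factors the fitted fall was smaller than the fitted rise, so the return depends on the scaling. The rise to latN was a log2 fold change of 2.33 (SE 0.54, adjusted p = 0.00552) and the fall to midTII one of -1.55 (SE 0.53, adjusted p = 0.0366). Without iniG replicate 2 the rise was not called (adjusted p = 0.0559). The fall was not called with RLE factors or without any 1 of its 4 libraries (adjusted p from 0.0749 to 0.202).

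ZFP36L2, a zinc-finger protein that binds AU-rich elements and promotes mRNA decay, was the highest member with a symbol in iniG, at 118 and 51.2 TPM. It reached 207 and 219 TPM in latN, and then 100 and 122 in midTII, 68.9 and 174 in latTII, and 69.3 and 62.9 in the larva. The libraries of latN did not overlap those of any other stage. The rise to latN had a log2 fold change of 1.53 (SE 0.42, adjusted p = 0.0166), and it was not called without iniG replicate 2 (adjusted p = 0.116) or without latN replicate 1 or 2 (adjusted p = 0.0664 and 0.0515). No later step of this gene passed the test, and it did not differ detectably among the late stages (adjusted p = 0.317).

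LTK, a receptor tyrosine kinase of the ALK family, was the only member of a list of 59 matched signalling genes. Its levels were 17.7 and 14.7 TPM in iniG, 159 and 148 in latN, 76.4 and 114 in midTII, 10.99 and 8.18 in latTII, and 13.1 and 10.6 in the larva. LTK was therefore high in latN and midTII alone among the stages measured. It rose to latN by 3.45 on the log2 scale (SE 0.38, adjusted p = 1.55e-05) and fell from midTII to latTII (log2 fold change -3.25, SE 0.38, adjusted p = 0.000206), both called in each of 13 alternatives. RASSF9, a protein with a Ras association domain, had 48.1 and 21.1 TPM in iniG, 74.5 and 69.8 in latN, 37.4 and 53.7 in midTII, 36.7 and 67.1 in latTII, and 15.02 and 10.01 in the larva. The libraries of latN lay above all others from iniG on, and those of the larva lay lowest. The rise to latN (log2 fold change 1.26, SE 0.37, adjusted p = 0.0214) was lost without iniG replicate 2 (adjusted p = 0.150) or latN replicate 1 (adjusted p = 0.102). The fall to the larva (log2 fold change -2.01, SE 0.38, adjusted p = 0.00647) was lost without latTII replicate 2 (adjusted p = 0.0756) or larva replicate 2 (adjusted p = 0.1).

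A pair of members encodes proteins of the extracellular matrix, and they went opposite ways at the end of the series. THBS3 is a thrombospondin, a secreted calcium-binding glycoprotein of the matrix. It had 29.0 and 16.7 TPM in iniG, 244 and 181 in latN, 340 and 325 in midTII, 278 and 340 in latTII, and 50.6 and 48.2 in the larva. The 3 stages from latN to latTII lay far above iniG and the larva. THBS3 rose to latN (log2 fold change 3.42, SE 0.31, adjusted p = 2.43e-06), rose again to midTII (1.11, SE 0.28, adjusted p = 0.00823) and fell to the larva (-2.60, SE 0.30, adjusted p = 0.000182). The second rise was not called on library totals or TPM, or without latN replicate 2 (adjusted p = 0.0912).

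SBSPON, a small secreted protein with somatomedin B and thrombospondin domains, had a second maximum in the larva. Its levels were 77.8 and 64.4 TPM in iniG, 148 and 156 in latN, 49.8 and 40.9 in midTII, 42.0 and 29.8 in latTII, and 160 and 139 in the larva. LatN and the larva overlapped with each other and with no other stage. The rise to latN (log2 fold change 1.30, SE 0.26, adjusted p = 0.00236), the fall to midTII (-1.27, SE 0.26, adjusted p = 0.0025) and the rise to the larva (2.10, SE 0.27, adjusted p = 0.000495) were each called in all 13 alternatives. SBSPON was 1 of only 2 members that rose in that last step.

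KIRREL1, an immunoglobulin-family adhesion protein of cell junctions, had 29.0 and 14.98 TPM in iniG, 32.0 and 35.8 in latN, 52.5 and 49.0 in midTII, 31.9 and 73.5 in latTII, and 12.7 and 11.96 in the larva. The larva lay below every earlier stage from iniG on. Its rise from latN to midTII (log2 fold change 1.05, SE 0.37, adjusted p = 0.0439) was lost in 9 of the 13 alternatives. These were the removal of any 1 of the 4 libraries (adjusted p from 0.0974 to 0.164), library totals (adjusted p = 0.2), limma on log2(TPM + 1) and log2(TPM + 0.1) (adjusted p = 0.227 and 0.334), only the 10 libraries from iniG on (adjusted p = 0.0615) and a replicate block (adjusted p = 0.0502). Its fall to the larva (-2.05, SE 0.38, adjusted p = 0.00592) was not called without latTII replicate 2 (adjusted p = 0.0906), larva replicate 1 (adjusted p = 0.0503) or larva replicate 2 (adjusted p = 0.0794).

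The members FUT6 and FUT7, named after alpha-1,3-fucosyltransferases of the Golgi, which add fucose to glycans, are consecutive genes on chromosome 1. FUT7 had 97.8 and 50.05 TPM in iniG, 336 and 306 in latN, 144 and 128 in midTII, 53.3 and 54.7 in latTII, and 57.3 and 63.7 in the larva. FUT6 had 27.4 and 15.9 TPM in iniG, 68.3 and 71.2 in latN, 28.2 and 31.8 in midTII, 11.1 and 7.46 in latTII, and 11.4 and 6.65 in the larva. The courses were alike and the levels of FUT7 were higher in every library from iniG on. Both rose to latN, FUT7 by a log2 fold change of 2.32 (SE 0.31, adjusted p = 9.77e-05) and FUT6 by 1.89 (SE 0.36, adjusted p = 0.00139), and both fell from midTII to latTII, with log2 fold changes of -1.29 (SE 0.30, adjusted p = 0.018) and -1.64 (SE 0.36, adjusted p = 0.0116). The fall of FUT7 was lost without any 1 of the 4 libraries (adjusted p from 0.0562 to 0.113), and that of FUT6 without midTII replicate 1 or 2 or latTII replicate 2 (adjusted p = 0.052, 0.0681 and 0.112). Salmon can divide reads between related neighbours, so how much of each course belongs to which gene is uncertain.

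SERPINC1, named after antithrombin, an inhibitor of serine proteases, had 62.1 and 45.1 TPM in iniG, 73.9 and 75.4 in latN, 87.3 and 108 in midTII, 66.8 and 128 in latTII, and 23.4 and 20.2 in the larva. Its stage means lay between 53.6 and 97.7 TPM up to latTII, and no step passed the test before the fall to the larva (log2 fold change -2.12, SE 0.35, adjusted p = 0.0025), which was lost without larva replicate 2 (adjusted p = 0.0517). PCTP, a transfer protein for phosphatidylcholine, showed the largest rise to latN of the members with a symbol. It had 42.2 and 34.5 TPM in iniG, 472 and 421 in latN, 535 and 534 in midTII, 203 and 261 in latTII, and 91.0 and 75.8 in the larva. PCTP changed in every step: by 3.75 (SE 0.21, adjusted p = 3.12e-08), 0.73 (SE 0.19, adjusted p = 0.0105), -1.16 (SE 0.19, adjusted p = 0.00251) and -1.44 (SE 0.20, adjusted p = 0.000718) on the log2 scale. Its rise from latN to midTII was not called on library totals or TPM, nor without latN replicate 2 (adjusted p = 0.109) or midTII replicate 1 (adjusted p = 0.062).

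SC5D, sterol C5-desaturase, an enzyme of cholesterol synthesis, had 22.9 and 17.5 TPM in iniG, 17.5 and 15.8 in latN, 17.3 and 11.4 in midTII, 11.3 and 13.7 in latTII, and 12.4 and 12.2 in the larva. On the TPM scale its mean was 20.2 in iniG and 12.3 in the larva, and both larva libraries lay below both iniG libraries. None of its steps between successive stages passed the test. On counts with TMM factors its fitted log2 fold changes were -0.07, 0.26, -0.16 and 0.02 in order, each with an SE of 0.39. The lower larva level was thus seen on TPM and not in these fitted steps. WBP2NL, named after a WW-domain-binding protein of the mammalian sperm head, had 44.1 and 26.2 TPM in iniG, 353 and 339 in latN, 102 and 153 in midTII, 94.6 and 118 in latTII, and 42.3 and 31.9 in the larva. It rose to latN (log2 fold change 3.50, SE 0.36, adjusted p = 9.42e-06), and its libraries there lay above those of every other stage. The falls to midTII (-0.98, SE 0.33, adjusted p = 0.0365) and to the larva (-1.47, SE 0.34, adjusted p = 0.018) were weaker calls. The first was lost without any 1 of its 4 libraries (adjusted p from 0.0562 to 0.223) and with RLE factors. The second was lost without latTII replicate 2 (adjusted p = 0.125), larva replicate 1 (adjusted p = 0.0627) or larva replicate 2 (adjusted p = 0.180).

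**Figure D5:**
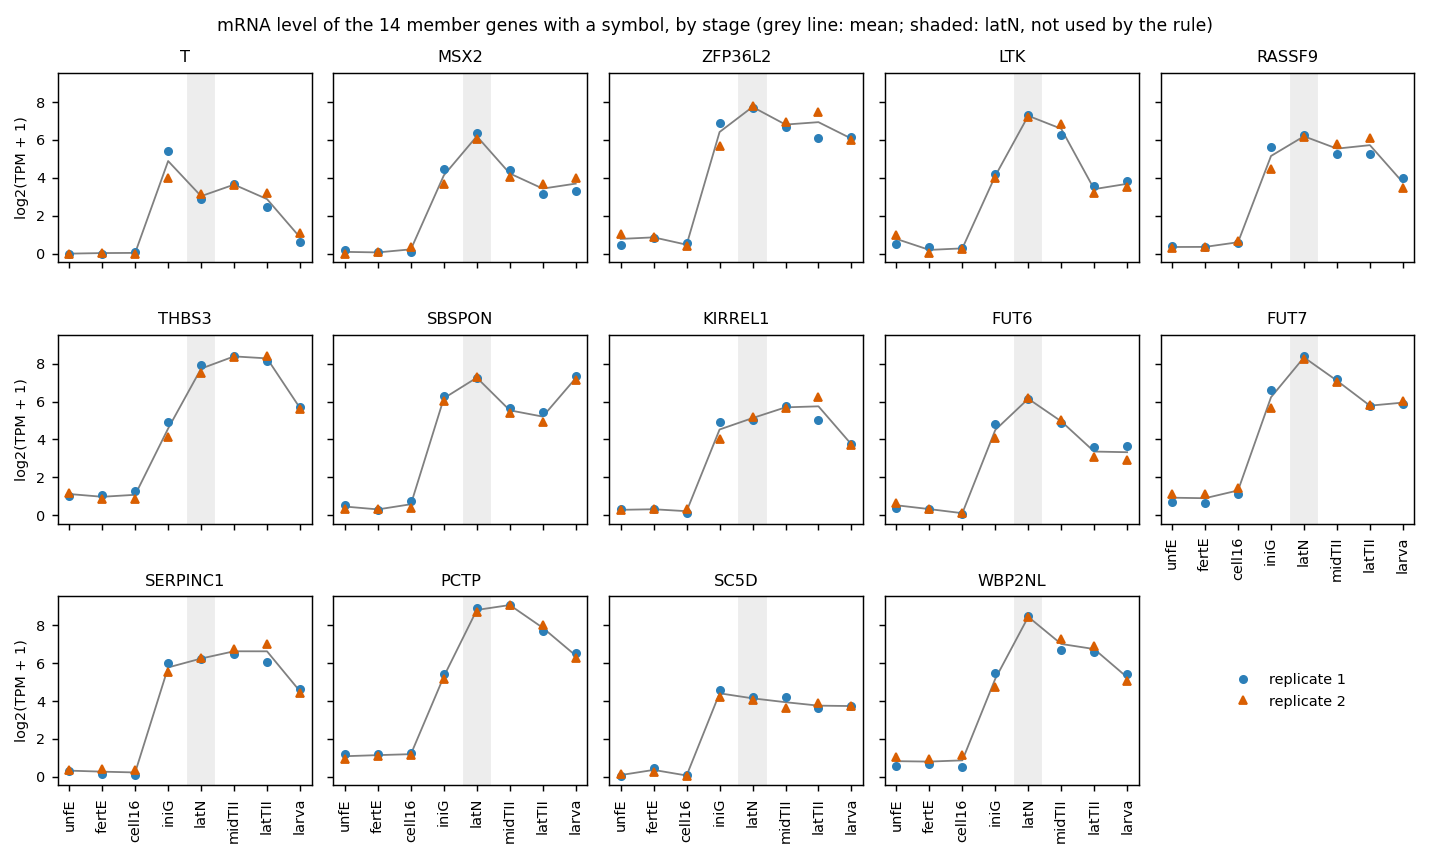
Level of the 14 members with a symbol, as log2(TPM + 1) on the y axis, in the 8 stages on the x axis; circles and triangles are the libraries of replicates 1 and 2, the grey line joins the stage means, and latN, which the rule did not use, is shaded. T is highest in iniG, and SBSPON has a second maximum in the larva. On this TPM scale SC5D has its highest mean in iniG, at 20.2 TPM, and its lowest from there on in the larva, at 12.3 TPM, which its fitted steps on counts did not show.

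The other 87 members have no symbol in the tables used and are given by their KY21 identifiers alone. The pair with the highest levels, KY21.Chr11.688 and KY21.Chr11.686, lies 2 numbers apart on chromosome 11. KY21.Chr11.688 had 153 and 186 TPM in iniG, 1210 and 1147 in latN, 503 and 539 in midTII, 57.1 and 147 in latTII, and 10.5 and 19.8 in the larva. KY21.Chr11.686 had 63.0 and 182 TPM in iniG, 701 and 1131 in latN, 399 and 131 in midTII, 86.2 and 71.0 in latTII, and 27.0 and 32.0 in the larva. Together they held 17.3% of the members' summed TPM in latN, and both lost most of their level by the larva. The rises to latN were 3.005 (SE 0.37, adjusted p = 5.7e-05) and 3.11 (SE 0.57, adjusted p = 0.00126) on the log2 scale, and KY21.Chr11.688 fell from midTII to latTII (-2.30, SE 0.36, adjusted p = 0.00183) and again to the larva (-2.70, SE 0.38, adjusted p = 0.000994). These 4 calls were made in all 13 alternatives. KY21.Chr13.146 had the same order of stages at a lower level, with 155 and 101 TPM in iniG, 784 and 642 in latN, 205 and 211 in midTII, 44.9 and 41.0 in latTII, and 21.9 and 11.7 in the larva.

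Some of the highest members in iniG did not pass the test for a rise. KY21.Chr12.569, the highest in iniG, had 229 and 132 TPM in iniG, 204 and 172 in latN, 77.05 and 102 in midTII, 83.3 and 129 in latTII, and 70.0 and 57.4 in the larva. None of its steps passed the test. KY21.Chr4.720 likewise had 210 and 125 TPM in iniG, 139 and 137 in latN and 28.8 and 30.01 in the larva, with no step called, and KY21.Chr5.604 had 150 and 128 TPM in iniG and 133 and 118 in latN before its single called step, a fall to midTII (log2 fold change -0.78, SE 0.26, adjusted p = 0.0312). That fall was not called with RLE factors or without latN replicate 1 (adjusted p = 0.168) or midTII replicate 1 (adjusted p = 0.21).

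The 3 largest rises to latN belonged to genes with iniG means below the members' median of 25.6 TPM. The iniG level is also the base of these fold changes. The next largest were those of KY21.Chr7.315 (4.02), KY21.Chr1.1601 (3.82) and PCTP (3.75), whose iniG means lay above that median. KY21.Chr11.1045 had 13.2 and 11.3 TPM in iniG, 374 and 286 in latN, 466 and 631 in midTII, 146 and 389 in latTII, and 43.5 and 117 in the larva, and its rise of 4.96 (SE 0.53, adjusted p = 1.89e-05) was the largest called. KY21.Chr4.707 had 17.4 and 11.7 TPM in iniG, 378 and 307 in latN, 141 and 157 in midTII, 95.9 and 158 in latTII, and 140 and 148 in the larva. KY21.Chr4.120 had 23.2 and 12.7 TPM in iniG, 444 and 352 in latN, 373 and 347 in midTII, 447 and 353 in latTII, and 216 and 129 in the larva. In the larva, both libraries of all 3 genes still lay above their iniG libraries. KY21.Chr2.1389 rose in both of the first steps, from 19.7 and 11.2 TPM in iniG through 212 and 139 in latN to 626 and 609 in midTII (log2 fold changes 3.71, SE 0.35, adjusted p = 3.87e-06, and 2.28, SE 0.32, adjusted p = 0.00016). KY21.Chr1.1601 had the highest level of any member in latTII, at 463 and 835 TPM, and in the larva, at 270 and 182 TPM, after 38.4 and 16.8 TPM in iniG. The rises to latN of KY21.Chr11.1045, KY21.Chr4.707, KY21.Chr4.120, KY21.Chr2.1389 and KY21.Chr1.1601 were called in all 13 alternatives.

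Another group of members fell after iniG and then returned. A member whose latN mean was under 0.25 of its iniG mean had to come back in a late stage to meet the rule, so the returns of the 3 genes described next are given as values with no test. KY21.Chr10.704 had 31.7 and 19.6 TPM in iniG and 0.312 and 0.488 TPM in latN, which rest on 8.2 and 12.7 estimated counts. It came back at 4.52 and 6.28 TPM in midTII, 10.1 and 16.9 in latTII, and 6.18 and 6.67 in the larva. This was the lowest latN level of any member, and the latN libraries lay below all 8 others from iniG on. The fall was a log2 fold change of -5.79 (SE 0.71, adjusted p = 4.09e-05), called in all 13 alternatives, and the return one of 4.20. KY21.Chr9.1078 showed the same kind of course with its return in latTII: 35.6 and 28.3 TPM in iniG, 5.83 and 4.91 in latN, 5.14 and 14.5 in midTII, 45.2 and 53.6 in latTII, and 8.58 and 7.07 in the larva. It was 1 of the 2 members counted above as higher in latTII than in midTII (log2 fold change 2.40). Its called fall to the larva was not called without larva replicate 2 (adjusted p = 0.0517). KY21.Chr14.316 had 114 and 84.7 TPM in iniG, 6.42 and 5.57 in latN, 12.3 and 15.7 in midTII, 25.6 and 38.3 in latTII, and 12.7 and 11.3 in the larva. Its fall to latN passed the test (-3.84, SE 0.64, adjusted p = 0.000541), and its return to midTII was a log2 fold change of 1.69.

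In all, 15 members had a latN mean below both the iniG mean and the highest late mean. Of these, 9 were highest in iniG and 6 in a late stage. The members that fell to latN and passed the test were the 3 above, KY21.Chr5.707, KY21.Chr5.941 and KY21.Chr8.541. KY21.Chr8.541 had 21.6 and 13.6 TPM in iniG, 3.88 and 2.40 in latN, 1.51 and 1.69 in midTII, 3.65 and 3.33 in latTII, and 18.2 and 11.5 in the larva. It had the highest ratio of larva to midTII mean of all members, 9.30. Of its late means, only that of the larva met the late condition. The rule therefore fixed a larva level above midTII and latTII, and its late course is given as values with no test. From latTII to the larva its log2 fold change was 2.13 (SE 0.65). Its fall to latN (-2.27, SE 0.66, adjusted p = 0.0189) was lost without iniG replicate 1 (adjusted p = 0.107) or either latN replicate (adjusted p = 0.0537 and 0.128).

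On TPM, most members ended lower in the larva than in midTII. The rule selected on the highest of the late means, so the counts and ratios here only describe the chosen genes. No share over all genes was computed for them. The larva mean was below the midTII mean in 81 members, the median ratio was 0.565, and in 11 members it was under 0.1. KY21.Chr7.315 had the lowest ratio, 0.0108. It had 38.8 and 23.2 TPM in iniG, 472 and 403 in latN, 499 and 452 in midTII, 85.0 and 129 in latTII, and 4.96 and 5.35 in the larva. The fall to latTII (log2 fold change -2.10, SE 0.27, adjusted p = 0.000372) and that to the larva (-4.33, SE 0.31, adjusted p = 4.09e-06) were called in all 13 alternatives, and the second was the largest fall in that step. Some members were kept on in midTII but were nearly gone after it. KY21.Chr5.1051 had 24.1 and 16.1 TPM in iniG, 36.4 and 33 in latN and 11.7 and 19.0 in midTII, but 0.857 and 1.38 in latTII and 0.725 and 0.875 in the larva. KY21.UAContig3.1 was at 1.10 and 6.64 TPM in midTII, at 0 in both latTII libraries, and at 0 and 0.393 in the larva. Its replicates differed widely in latN too, with 4.69 and 15.6 TPM.

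The second member that rose from latTII to the larva was KY21.Chr4.186, with a mean of 47.9 TPM in latTII and 96.0 TPM in the larva (log2 fold change 1.04, adjusted p = 0.0497), a call lost with any 1 of the 4 libraries left out (adjusted p from 0.05 to 0.354). It was chosen for the text after its values were seen. As with SBSPON, its called steps were a rise to latN, a fall to midTII and a rise to the larva, and these were the only 2 members with that sequence of calls. The fall to midTII was lost without latN replicate 1 (adjusted p = 0.0689) or midTII replicates 1 and 2 (adjusted p = 0.0578 and 0.0649).

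Members were found on all 14 chromosomes, as far as the identifiers give one. They numbered from 0.824 for each 1000 KY21 genes on chromosome 7, with 1 member, to 9.91 on chromosome 2, with 15. Among the members, 4 pairs carry consecutive numbers: FUT6 with FUT7, KY21.Chr1.1342 with KY21.Chr1.1343, KY21.Chr2.911 with KY21.Chr2.912, and KY21.Chr9.112 with KY21.Chr9.113. KY21.Chr9.112 and KY21.Chr9.113 had means of 13.9 and 21.2 TPM in iniG, 79.1 and 119.7 in latN, 30.3 and 35.7 in midTII, 11.2 and 9.88 in latTII, and 5.75 and 6.28 in the larva, and shared the calls of a rise to latN, a fall to midTII and a fall to latTII. The rises were called in all 13 alternatives, and the falls were lost in 3 to 5 of them. Where such neighbours are related copies, their estimated counts are uncertain in the same way as those of FUT6 and FUT7. These pairs were picked by position after the members were known.

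The effective transcript length that Salmon used, taken as the ratio of estimated count to TPM and divided by the median of the expressed genes of each library, had a median of 0.862 in the members, with quartiles of 0.595 and 1.24. It was 0.932 over the 13832 detected KY21 genes and 0.664 in the 38 genes not kept on. The depth behind a member therefore varied widely: in the lower iniG library the members had from 11.2 to 5435 estimated counts, with a median of 478.6. Of the 10 members with fewer than 100 counts there, each had a relative length of 0.271 or less and none was called in any step.

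The 12 gene lists were matched by symbol. The study's tables, as read here, gave a symbol for 3827 of the 18388 KY21 genes, of which 14 are members. Genes without a symbol there could not be matched to any list. The lists were drawn up with earlier results of these data known, so their counts are a description. The members were 2 of 37 matched transcription factors (T and MSX2), 2 of 47 matrix and integrin genes (THBS3 and SBSPON), 2 of 45 glycosyl- and sulfotransferases (FUT6 and FUT7), 1 of 59 signalling genes (LTK), 1 of 34 adhesion and junction genes (KIRREL1) and 1 of 33 proteases and inhibitors (SERPINC1). In each of these lists, the members were the only genes that met the early and iniG conditions, so none of their genes was among those first on at iniG and not kept on. No member was found among 26 genes of muscle contraction, 32 of neurons and sensory or pigment cells, 38 of motile cilia, 69 transporters and channels, 37 oxidoreductases and conjugating enzymes, or 26 genes of blood and immune cells. In those 6 lists, between 1 and 10 genes a list were below 2 TPM in all early libraries.

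The choice was repeated in the libraries of 1 replicate number and read in the others. The replicate 1 libraries alone chose 211 genes, of which 177 met the early limit, 121 the iniG limit and 204 the late condition in the replicate 2 libraries, and 92 met all of them. The replicate 2 libraries alone chose 151 genes, of which 137, 115 and 139 met the early, iniG and late conditions in the replicate 1 libraries. The 92 genes that met all are the same genes in both directions, since the same thresholds were applied to each replicate number. The median iniG level of the genes chosen was 19.73 TPM in the choosing replicate 1 libraries and 12.29 TPM in the others, and for the choice in replicate 2 it was 16.8 TPM and 21.64 TPM. In the libraries not used for choosing, and thus over these differing iniG levels, the median ratio of latN to iniG level was 2.59 and 1.75, and the most frequent stage of the highest level was latN in both, for 89 of 211 and 58 of 151 genes. The larva was highest for 21 and 9 genes.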

How the data were processed

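RNA of whole eggs and embryos of 8 stages was sequenced as read pairs in 16 poly(A)-selected, stranded libraries, 2 per stage. After quality control (FastQC) and adapter and quality trimming (Trim Galore), the authors quantified transcripts of the KY21 gene set by Salmon and added them up to gene level. The deposited tables used here hold estimated counts without normalization and TPM. A deposited table of counts divided by DESeq2 size factors was not used. The versions of these tools are left out here.

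The members were chosen on TPM as deposited. Estimated counts deposited by the authors were rounded and tested in R 4.3.3 with edgeR 4.0.16 (filterByExpr by stage, TMM factors, robust quasi-likelihood F-test, Benjamini-Hochberg adjustment over all 14643 rows tested, adjusted p under 0.05). The SE was derived by dividing the size of the log2 fold change by the root of F. With 2 libraries a stage, all 8 stages share 1 estimate of the spread, and where a library is left out, the lone library of its stage is assumed to vary like the others. Alternatives were DESeq2 1.42.0, limma 3.58.1 on log2(TPM + 1) and log2(TPM + 0.1), RLE factors, library totals, no filter, at least 50 counts in 2 libraries, a replicate block, only the 10 libraries from iniG on, and each library left out. Between the libraries of a stage, the chi-square per gene was 37.3 to 111, so none was taken as a copy of another. Descriptive values were computed in Python 3.11.15 with pandas 2.3.3 and numpy 2.4.6, and plots drawn with matplotlib 3.10.9.

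The members and the gene lists were chosen with earlier results of these data known. Genes are named by rule: members with a symbol, the 10 highest by iniG mean and by highest late mean, the 10 highest and 10 lowest by the ratio of latN to iniG, the 5 highest and 5 lowest by the ratio of larva to midTII, and the genes next to each threshold. Gene coordinates and sequences were not used here, since the identifiers could not be matched to the reference table. No per-sample columns of the tables used were left out.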

Additional observations from a re-analysis of the deposited data

How the results depend on the processing

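Of 132 recounts of members under other settings, 87 stayed within 1.5 times the reported count. In the choice of members, an early limit of 1 or 5 TPM gave 59 or 155 genes, an iniG minimum of 5 or 20 TPM gave 202 or 47, stage means in place of every library gave 176, and the libraries of a single replicate number gave 151 to 211. From iniG to latN, limma on log2(TPM + 1) gave 11 falls, and leaving out 1 library gave 34 to 44 rises and 5 to 8 falls. From latN to midTII, the rises were 8 on library totals, 10 with limma on log2(TPM + 1), 7 with limma on log2(TPM + 0.1) and 26 with DESeq2, and 6 to 13 with 1 library left out. The falls were 9 with RLE factors, 29 on library totals, 37 and 29 with limma on log2(TPM + 1) and log2(TPM + 0.1), and 6 to 10 with 1 library left out. From midTII to latTII, the rises were 4 with limma on log2(TPM + 1), 1 on log2(TPM + 0.1), 4 with DESeq2 and 1 to 2 with 1 library left out, and the falls were 7 to 10 with 1 left out. From latTII to the larva, the rises were 1 with limma on log2(TPM + 0.1), 5 with DESeq2 and 1 to 2 with 1 library left out, and the falls 26 with DESeq2 and 5 to 18 with 1 left out. The cause was not tested.

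By stage of the highest mean, TMM-normalised counts placed 12 members in iniG and 4 in the larva, RLE-normalised counts 10 in iniG, 18 in latTII and 4 in the larva, and library totals 1 in the larva, against 22, 11 and 0 by TPM. These scalings were chosen after seeing the data. Library totals and limma on TPM moved the median log2 fold change of all genes from iniG to latN to -0.20 and -0.11, and library totals moved it to 0.15 from latTII to the larva.

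The replicate numbers were not taken as pairs, because neither the labels nor the methods say which number came from which fertilization, and each step has only 2 pairs. Differences between replicates 1 and 2 correlated between stages at 0.552 for iniG and latN, 0.0334 for latN and midTII, 0.0308 for midTII and latTII, and 0.178 for latTII and the larva, across genes, which are not independent. Among the early stages the correlation was 0.615 for unfE with fertE, 0.615 for unfE with cell16 and 0.682 for fertE with cell16. For cell16 with iniG it was 0.042. With the replicate number as a block, 44 members rose and 6 fell from iniG to latN, 42 differed among the late stages, and the rise of KIRREL1 from latN to midTII (log2 fold change 1.06) had an adjusted p of 0.0502 in edgeR. No other call of a named gene was lost under the block.

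Of the 72 called steps of named genes, 42 were called in all 13 alternatives and none changed sign. Of the 117 calls lost over 936 refits, 81 were lost with a library left out. With 2 libraries a stage an exact permutation test of 1 step cannot pass 0.05, so every p-value rests on a spread shared over stages.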
